A study of Mus musculus with 8 samples.

Results

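The genes of sequence-specific RNA-binding proteins that choose splice sites were followed in injured mouse spinal cord. All protein-coding genes whose symbols belong to the Hnrnp, Srsf, Tra2, Rbfox, Celf, Ptbp, Nova, Mbnl, Elavl and Khdrbs families, together with Qk, were taken, by name alone. This gave 58 genes of 54532 in the deposited tables, of which 22046 are protein coding. RNA-seq had been made from spinal cord 7 days after spinal cord injury, in 4 libraries of Tia1Nestin-CKO mice, called CKO here, and 4 of Tia1f/f mice, called control here. Tia1f/f denotes a Tia1 allele flanked by recombination sites, and the name Tia1Nestin-CKO denotes its conditional knockout under Nestin, which marks neural stem cells and their progenitors. Cells of other origin in the cord, such as blood-derived macrophages, would keep the gene in such a design. Age, sex, strain, the injury model and whether each library came from a separate mouse are not stated by the labels. P-values therefore measure the spread between these libraries.

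Pre-mRNA splicing is steered by proteins that bind short motifs in exons and introns and that help or hinder the spliceosome. SR proteins mostly favour the inclusion of exons they bind, hnRNP proteins often oppose it, and families such as Nova, Rbfox, Elavl, Mbnl and Celf set tissue-specific patterns, many of them in neurons. TIA1 is itself such a protein: it binds uridine-rich sequence next to a 5′ splice site and helps the U1 snRNP to settle there. The counts used here sum all transcripts of a gene, so they describe the level of the regulators and not the splicing of any exon.

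The targeted gene was examined first. Tia1 was at 23.4, 27.8, 24.0 and 32.1 CPM, read counts scaled to a common library size, in CKO libraries 1 to 4, against 41.9, 24.4, 31.3 and 34.2 CPM in control libraries 1 to 4. The ranges overlapped, since CKO 2 and CKO 4 lay above control 2. Tia1 averaged 26.9 ± 4.01 CPM in CKO and 32.9 ± 7.21 CPM in control (SD, n = 4 each), and an exact two-sided permutation test over 70 assignments gave p = 0.200, where the smallest possible is 0.0286. Its paralog Tial1 averaged 48.4 ± 2.85 CPM in CKO and 49.6 ± 2.27 CPM in control (exact permutation p = 0.457). The gene total counts every part of the transcript and every cell of the cord, so it does not measure the loss of the deleted part in Nestin-lineage cells.

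The libraries held 14752733 to 17802884 counts, and 0.637 to 0.806% of them fell on the 58 genes. The library control 1 stood apart: counts were found for 18884 genes there and for 22434 to 23414 in the other libraries. It was the highest library for 28 of the 58 genes (48.3%, against 27.5% of all genes tested) and the lowest for 14 (24.1%, against 29.4%). All neuronal and oligodendrocyte markers passed the filter on low counts. The summed level of 14 neuronal markers was 1482 to 1925 CPM in CKO and 1330 to 3335 CPM in control, and that of 10 oligodendrocyte markers was 33182 to 37438 CPM in CKO and 23546 to 36677 CPM in control. Skeletal muscle markers varied widely, from 16.1 to 440 CPM in CKO and from 27.1 to 710 CPM in control.

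The deviation of control 1 from the other libraries went with the base composition of the transcripts. The starts of 6 coding sequences are printed for genes above or below the median library in control 1. Khdrbs2, Elavl4 and Qk lay far above the median of the 8 libraries there, and Hnrnpab and Celf3 far below it. Rbfox3 lay below it by less and was nearly as low in CKO 2 and CKO 4, while Elavl4 was higher still in control 2. These genes were chosen after their values were seen and not strictly by rank. Hnrnpul1, at -0.83 in control 1, lay lower than Rbfox3 and is not printed. Each line gives the first 120 coding bases, 5′ to 3′, of the longest protein-coding transcript in GENCODE M21 (GRCm38), with G and C in capitals and a and t in lower case.
Khdrbs2: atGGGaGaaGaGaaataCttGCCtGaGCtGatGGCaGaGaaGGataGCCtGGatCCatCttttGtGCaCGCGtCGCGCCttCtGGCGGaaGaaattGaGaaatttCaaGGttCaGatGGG
Elavl4: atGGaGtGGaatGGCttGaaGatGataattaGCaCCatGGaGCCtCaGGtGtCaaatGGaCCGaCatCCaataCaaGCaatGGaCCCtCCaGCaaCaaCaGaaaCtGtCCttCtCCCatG
Qk: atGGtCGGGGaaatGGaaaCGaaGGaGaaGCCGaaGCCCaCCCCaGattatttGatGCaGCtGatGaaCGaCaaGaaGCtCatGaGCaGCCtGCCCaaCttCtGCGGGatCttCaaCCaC
Hnrnpab: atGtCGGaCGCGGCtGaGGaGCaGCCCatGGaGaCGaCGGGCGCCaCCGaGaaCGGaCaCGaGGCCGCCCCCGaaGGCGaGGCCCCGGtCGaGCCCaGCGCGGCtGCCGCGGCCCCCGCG
Celf3: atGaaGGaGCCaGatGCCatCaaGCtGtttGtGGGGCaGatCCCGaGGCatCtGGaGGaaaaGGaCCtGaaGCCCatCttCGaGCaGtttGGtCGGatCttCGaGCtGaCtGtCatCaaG
Rbfox3: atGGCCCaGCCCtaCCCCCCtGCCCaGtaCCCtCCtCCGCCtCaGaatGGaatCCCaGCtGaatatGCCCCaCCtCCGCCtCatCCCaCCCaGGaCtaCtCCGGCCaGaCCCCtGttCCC

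Of these 120 bases, G and C made up 49.2% in Khdrbs2, 47.5% in Elavl4, 52.5% in Qk, 77.5% in Hnrnpab, 53.3% in Celf3 and 65.0% in Rbfox3, so that Qk and Celf3 were close at their starts. Over the whole transcript the GC content was 37.9% in Khdrbs2, 38.9% in Elavl4, 41.1% in Qk, 49.9% in Hnrnpab, 57.7% in Celf3 and 58.6% in Rbfox3. The 3 genes that were high in control 1 are thus among the poorest in G and C, and Celf3 and Rbfox3 are the richest. Hnrnpab, at 49.9%, is near the lower end of the 19 genes of highest GC content among the 58 (49.3 to 58.6%). The median of all protein-coding genes tested is 50.2%, so its GC content is high only within the 58. In control 1, 16 of these 19 genes lay below the median library and 3 above. Srsf2 lay above, at 0.58 against -2.01 for Hnrnpab, with 49.97% over its transcript and 68.5% over its coding sequence. The start of Hnrnpab is also rich in both bases. The part of its start or its whole transcript in its low value in control 1 was not tested. In the deposited tables Khdrbs2 lies on the plus strand of chromosome 1 at 32172714 to 32658568, Elavl4 on the minus strand of chromosome 4 at 110203722 to 110351909 and Qk on the minus strand of chromosome 17 at 10202601 to 10319854. Hnrnpab lies on the minus strand of chromosome 11 at 51600100 to 51606847, Celf3 on the plus strand of chromosome 3 at 94478295 to 94492198 and Rbfox3 on the minus strand of chromosome 11 at 118489762 to 118911597 (all GRCm38).

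Between the genotypes, none of the 58 genes passed the threshold of an adjusted p under 0.05 in edgeR's quasi-likelihood test, with Benjamini-Hochberg adjustment across the 16537 genes of the fit. The share called among all genes was 0%, so the count of 0 for the splicing regulators is that of the whole table. All 58 genes passed the filter on low counts. At an unadjusted p under 0.05, 1 of the 58 was counted, Mbnl3, against 1.42% of all genes tested. Mbnl3 was higher in CKO, as were 0.496% of all genes at that level, and 0 of the 58 were lower, against 0.919%. The CPM of the groups did not overlap for 1 of the 58, again Mbnl3, against 1.19% of all genes. DESeq2's Wald test called 0 of the 58 and 1 of 28868 genes (0.00346%). The fitted value was lower in CKO for 39 of the 58 genes and higher for 19, where 51.9% of all genes were lower. Their median log2 fold change was -0.07, beside -0.01 over all genes. The count of lower genes ran from 31 to 41 over the other settings tried, and it was 34 without control 1 and 31 with a correction for GC content and length. The 95% interval of a gene reached a median of 0.39 on the log2 scale to either side, before any adjustment for the number of genes tested.

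**Figure D1:**
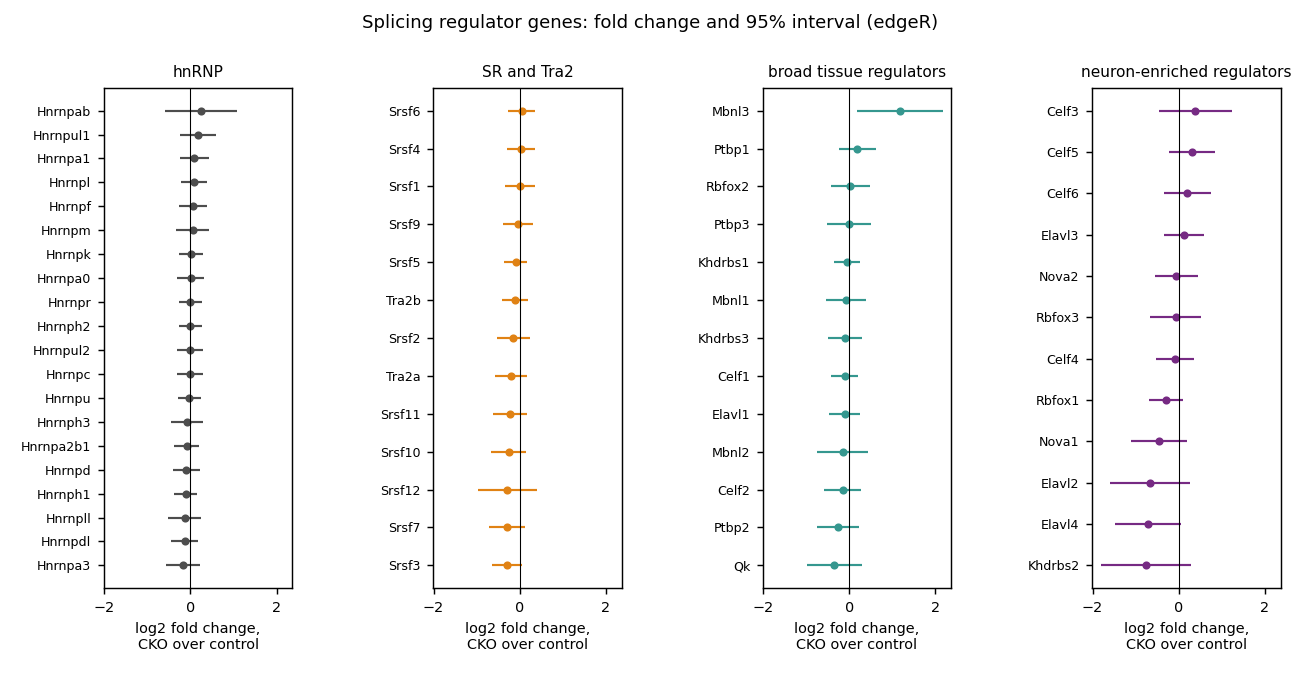
Log2 fold change of CKO over control for the 58 genes, in 4 panels by role. Points are edgeR estimates and lines their 95% intervals; the interval of Mbnl3 (0.19 to 2.17) is the one that does not cross 0.

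The hnRNP genes, whose proteins coat nascent transcripts, had the highest median level of the 4 role groups and the smallest median spread. The median level was 23.8 FPKM, close to 22.8 FPKM for SR and Tra2 genes. It was 11.6 FPKM for broad tissue and 3.60 FPKM for neuron-enriched regulators. By the mean of the 8 libraries, Hnrnpa0 led narrowly at 69.1 ± 3.71 FPKM in CKO and 68.5 ± 10.4 FPKM in control, followed by Hnrnpa1, a classic repressor of exon inclusion, at 70.9 ± 8.49 FPKM in CKO and 66.5 ± 8.51 FPKM in control (SD, n = 4 each). FPKM is the authors' value per gene length as deposited, and Hnrnpa0 and Hnrnpa1 did not differ beyond their spread. That length can exceed the longest protein-coding transcript, as in Hnrnpa2b1 (6584 against 1728 bases), while both are 2678 bases in Hnrnpa0. The order of genes by FPKM therefore depends on the length used. The lowest of the 20 was Hnrnpr, at 3.24 ± 0.120 FPKM in CKO and 3.22 ± 0.303 FPKM in control. In between lay Hnrnpk, a poly(C)-binding protein, at 55.5 ± 1.93 FPKM in CKO and 54.5 ± 3.39 FPKM in control.

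**Figure D2:**
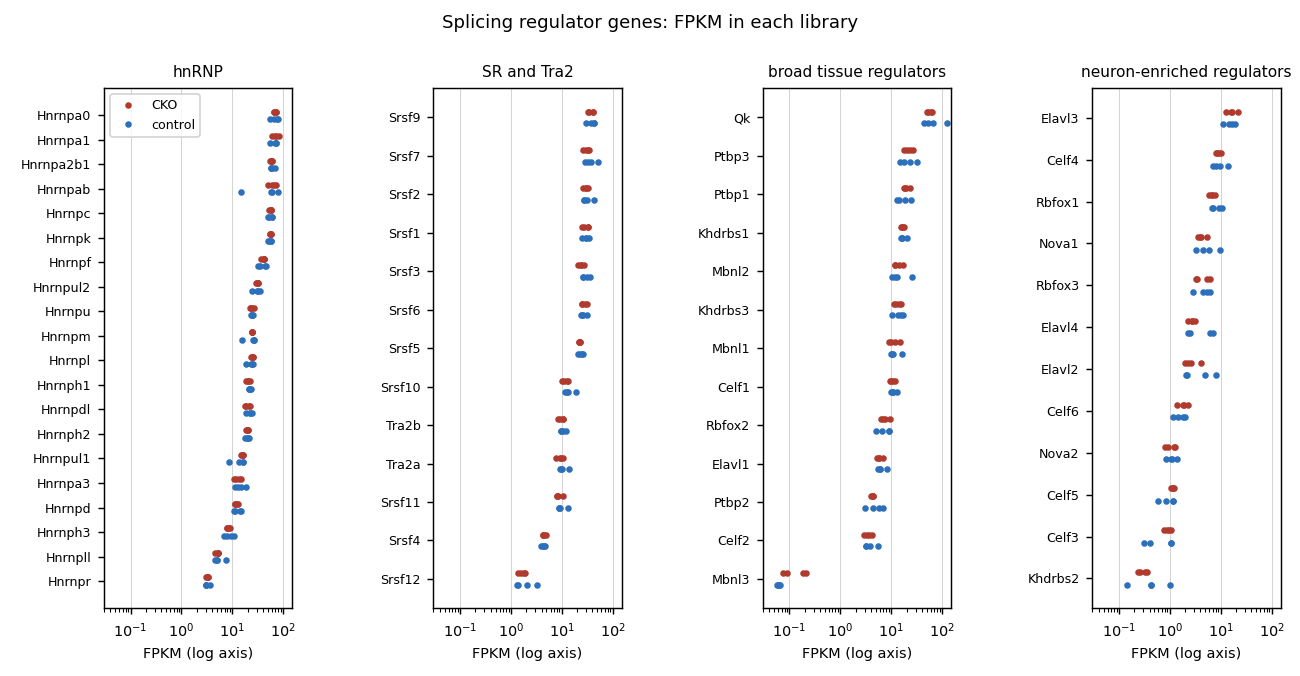
FPKM of each of the 58 genes in each library on a log axis, in 4 panels by role, with CKO (red) above control (blue). Levels run from about 0.10 FPKM for Mbnl3 to 68.8 FPKM for Hnrnpa0 as means of the 8 libraries, and the groups overlap in every gene but Mbnl3.

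Of the 20 hnRNP genes, 9 had a higher and 11 a lower fitted value in CKO. Their median log2 fold change was -0.00, with a range from -0.18 for Hnrnpa3 to 0.24 for Hnrnpab. Hnrnpa0 was at 179, 197, 193 and 176 CPM in CKO, against 153, 174, 209 and 204 CPM in control. The CKO libraries lay inside the control range, and the log2 fold change was 0.01 ± 0.14 (SE). Their median coefficient of variation over the 8 libraries was 10.8%, and 6.77% without control 1. Hnrnpm, which binds GU-rich sequence, shows the same contrast, with 114, 115, 115 and 115 CPM in CKO against 73.3, 124, 126 and 121 CPM in control. Hnrnpm shares exon sequence on the same strand with March2, whose counts were as many, so its level is uncertain.

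The coefficients of variation of the hnRNP genes ran from 4.76% for Hnrnpk to 33.5% for Hnrnpab over the 8 libraries. Hnrnpu, a scaffold of nuclear RNA, was at 270, 285, 260 and 304 CPM in CKO, against 276, 282, 294 and 286 CPM in control. Hnrnpc, which binds uridine tracts as TIA1 does and masks cryptic exons, was at 224, 252, 247 and 243 CPM in CKO, against 268, 262, 212 and 228 CPM in control. Their log2 fold changes were -0.02 ± 0.12 and -0.01 ± 0.13 (SE), and the groups overlapped in both genes. Hnrnpa2b1, a binder of exported and localized mRNA, was at 361, 393, 383 and 393 CPM in CKO, against 466, 382, 380 and 392 CPM in control. Its coefficient of variation was 7.91% over the 8 libraries and 2.98% without control 1, the lowest of the 58 genes on that measure. The G-tract binders Hnrnph1, Hnrnph2 and Hnrnpf gave log2 fold changes of -0.11 ± 0.12, -0.00 ± 0.12 and 0.06 ± 0.15 (SE). Hnrnpd, also called AUF1, and its relative Hnrnpdl, both binders of AU-rich sequence, gave -0.09 ± 0.15 and -0.14 ± 0.14. Hnrnpl and Hnrnpll, which bind CA-rich sequence, gave 0.07 ± 0.14 and -0.13 ± 0.17.

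Control 1 was the lowest library for 9 of the 20 hnRNP genes, among them Hnrnpab and Hnrnpul1. Hnrnpab, an A/B-type protein also found in RNA transport granules of neurons, was at 188, 198, 172 and 139 CPM in CKO, against 41.9, 165, 220 and 164 CPM in control. Its value in control 1 was below every other library, and the other 3 control libraries covered the CKO range except for CKO 4. Hnrnpul1, a relative of the nuclear scaffold protein hnRNP U, was at 139, 132, 138 and 127 CPM in CKO, against 75.6, 118, 138 and 145 CPM in control. Its log2 fold change was 0.17 ± 0.19 (SE), and 0.01 without control 1. Hnrnpab overlaps Phykpl on the opposite strand, and since the use of strand in counting is not stated, reads of the pair could not be told apart.

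Among the SR and Tra2 genes, which mainly encode activators of exon inclusion, 3 had a higher and 10 a lower fitted value in CKO, and the median of their log2 fold changes was -0.15. The most abundant was Srsf9, at 37.5 ± 4.61 FPKM in CKO and 38.3 ± 6.27 FPKM in control. Its CPM were 69.1, 57.7, 69.2 and 53.8 in CKO, against 50.4, 62.4, 69.8 and 73.1 in control, so the groups overlapped throughout. Srsf12, at 1.66 ± 0.219 FPKM in CKO and 2.02 ± 0.914 FPKM in control, was the lowest.

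Srsf3, the smallest SR protein and a link between splicing and mRNA export, had the second lowest p among the lower genes. It was at 188, 221, 165 and 192 CPM in CKO, against 284, 248, 208 and 207 CPM in control. The highest CKO library, CKO 2, lay above control 3 and control 4, so the groups overlapped. The log2 fold change was -0.31 ± 0.16 (SE), with an unadjusted p of 0.0775 and an adjusted p of 1.00 by edgeR. Srsf7, its closest relative in binding, gave -0.29 ± 0.19, and Srsf10, a repressor in its unphosphorylated form, gave -0.26 ± 0.18. Srsf1 and Srsf6 gave 0.00 ± 0.15 and 0.05 ± 0.14.

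The remaining SR and Tra2 genes overlapped between the genotypes. Srsf2, a component of nuclear speckles, was at 98.9, 87.2, 77.1 and 88.2 CPM in CKO, against 131, 82.6, 94.5 and 80.9 CPM in control. Its exons overlap those of Mfsd11 and Mettl23 on the opposite strand, which makes its level uncertain. Tra2b, a binder of GAA-rich exonic enhancers, was at 86.3, 97.1, 79.0 and 97.7 CPM in CKO, against 92.0, 97.4, 112 and 90.0 CPM in control. Srsf5 and Srsf4 had low coefficients of variation, 7.33% and 6.17% over the 8 libraries, and log2 fold changes of -0.10 ± 0.12 and 0.03 ± 0.14 (SE).

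Control 1 was the highest control library for 9 of the 13 genes. Srsf11 was at 116 CPM there and at 74.1, 74.3 and 80.3 CPM in the other control libraries, and Tra2a at 96.8 CPM against 66.0, 69.2 and 66.4 CPM. The median coefficient of variation of the 13 genes was 17.5%, and 10.9% without control 1. Transcripts annotated as subject to nonsense-mediated decay were found for 11 of the 13 (84.6%), against 2 of the 12 neuron-enriched genes and 26.9% of all protein-coding genes tested. SR genes are known to limit their own level through such transcripts, and the gene counts contain them without separating them. Over all 58 genes, 30 (51.7%) had such a transcript.

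The broad tissue regulators are members of the Qk, Ptbp, Mbnl, Celf, Rbfox, Elavl and Khdrbs families, mostly ones that are expressed well beyond neurons. Ptbp2 was placed in this group although it is the neuron-enriched paralog of Ptbp1. Of these 13 genes, 3 had a higher and 10 a lower fitted value in CKO, and the median of their log2 fold changes was -0.09. Mbnl3, on the X chromosome (minus strand, 51117269 to 51206532, GRCm38), is the member of the muscleblind family tied to immature and proliferating cells. It had 14, 25, 11 and 33 counts in CKO, against 8, 9, 9 and 10 counts in control. In CPM that is 0.787, 1.60, 0.663 and 1.86 in CKO, against 0.556, 0.535, 0.499 and 0.567 in control. Each CKO library lay above each control library, CKO 2 and CKO 4 by the most.

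The log2 fold change of Mbnl3 was 1.18 ± 0.45 (SE), with an unadjusted p of 0.0239 and an adjusted p of 1.00 by edgeR, so it did not pass the threshold. At about 1 CPM it was the lowest of the 58 genes per length, with 0.140 ± 0.0679 FPKM in CKO and 0.0610 ± 0.00295 FPKM in control. Leaving out 1 library at a time gave 0.90 to 1.38. The fitted value was higher in CKO for 9 of 9 neutrophil markers, with summed levels of 560 to 1945 CPM in CKO and 272 to 761 CPM in control. It was higher for 10 of 10 markers of dividing cells, with sums of 216 to 418 CPM in CKO and 206 to 366 CPM in control, and for 2 of 8 fibroblast markers, with sums of 2320 to 4504 CPM in CKO and 2299 to 5189 CPM in control. The highest neutrophil sum was in CKO 2 and the highest fibroblast sum in control 3, where Mbnl3 was lowest. The highest sum of dividing-cell markers was in CKO 1, at 418 CPM. In CKO 4, where Mbnl3 was highest, the sums were 561 CPM (neutrophil), 4504 CPM (fibroblast) and 307 CPM (dividing cells). None of these markers passed the threshold. The part of these cells in the level of Mbnl3 was not tested. In whole tissue, fewer cells of a type and less RNA per cell cannot be told apart.

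Qk encodes quaking, which is known for its role in myelination and in the splicing of glial genes, and it led this group at 56.4 ± 5.38 FPKM in CKO and 71.2 ± 35.3 FPKM in control. It was at 755, 851, 738 and 891 CPM in CKO, against 1782, 954, 623 and 756 CPM in control. Without control 1, the other control libraries spanned the CKO range. The log2 fold change was -0.35 ± 0.29 (SE) and turned to 0.06 without control 1. In that library the oligodendrocyte markers summed to 36677 CPM, inside the range of the CKO libraries, while their mean centred log2 CPM was 0.42, the highest of the 8 libraries (0.22 at most in CKO). The part of these cells in the level of Qk was not tested.

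Mbnl1 and Mbnl2, which promote adult splicing patterns, were highest in control 1 as well. Mbnl2 was at 144, 174, 143 and 205 CPM in CKO, against 309, 146, 157 and 125 CPM in control. Mbnl1 was at 173, 223, 184 and 273 CPM in CKO, against 312, 193, 206 and 187 CPM in control. Their log2 fold changes were -0.15 ± 0.27 and -0.07 ± 0.21 (SE), and 0.22 and 0.13 without control 1.

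Ptbp1 represses neuronal exons in cells other than neurons, and its paralog Ptbp2 replaces it as progenitors become neurons. Ptbp1 was at 91.0, 94.6, 85.6 and 111 CPM in CKO, against 69.7, 62.2, 116 and 88.7 CPM in control, a log2 fold change of 0.18 ± 0.20 (SE). Ptbp2 was at 41.4, 41.1, 38.2 and 36.0 CPM in CKO, against 65.0, 54.2, 28.4 and 40.6 CPM in control, a log2 fold change of -0.26 ± 0.22 (SE). For both genes the CKO libraries lay inside the control range, which was the wider one.

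Ptbp3, which is known from blood-forming cells, was at 153, 177, 135 and 202 CPM in CKO, against 242, 114, 177 and 137 CPM in control. Khdrbs1 encodes Sam68, a splicing regulator downstream of kinase signals, and was at 103, 109, 104 and 114 CPM in CKO, against 135, 101, 104 and 106 CPM in control. The log2 fold changes of these genes were -0.01 ± 0.23 and -0.05 ± 0.14 (SE), and control 1 was the highest library for both. Khdrbs3, a relative of Sam68, was at 56.7, 44.8, 53.2 and 42.0 CPM in CKO, against 57.4, 63.5, 38.5 and 50.5 CPM in control. Celf2, a regulator in brain, heart and T cells, was at 86.9, 93.7, 76.8 and 110 CPM in CKO, against 142, 82.9, 97.9 and 85.5 CPM in control.

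The remaining broad regulators of the ratios below also overlapped between the genotypes. Rbfox2 was at 52.8, 56.1, 63.0 and 76.8 CPM in CKO, against 41.4, 74.9, 73.2 and 55.2 CPM in control. Elavl1, which encodes the mRNA-stabilizing protein HuR, was at 54.2, 61.5, 61.0 and 71.0 CPM in CKO, against 85.9, 57.7, 61.5 and 62.2 CPM in control. Celf1 was at 82.7, 91.4, 79.4 and 99.3 CPM in CKO, against 113, 84.4, 89.9 and 91.3 CPM in control. The groups overlapped in all 3 genes, and control 1 was the lowest library for Rbfox2 and the highest for Elavl1 and Celf1.

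The neuron-enriched regulators, 12 in number, had 4 higher and 8 lower fitted values in CKO, and the median of their log2 fold changes was -0.08. They had the largest median spread of the 4 role groups, with a coefficient of variation of 25.3% over the 8 libraries and 23.8% without control 1. Elavl3, a neuronal Hu protein, was the most abundant at 16.6 ± 3.68 FPKM in CKO and 15.2 ± 3.37 FPKM in control. Its CPM were 115, 112, 149 and 86.1 in CKO, against 104, 131, 74.9 and 115 in control. Khdrbs2 was the lowest, at 0.296 ± 0.0578 FPKM in CKO and 0.501 ± 0.357 FPKM in control.

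The lowest p among the lower genes was that of Elavl4, which encodes the neuronal protein HuD that binds AU-rich sequence and promotes neurite growth. Elavl4 was at 15.1, 17.4, 15.1 and 12.3 CPM in CKO, against 34.7, 38.1, 12.3 and 13.9 CPM in control. Control 1 and control 2 were high, and control 3 and control 4 lay within or near the CKO range. The log2 fold change was -0.72 ± 0.35 (SE), with an unadjusted p of 0.0634 and an adjusted p of 1.00 by edgeR. Elavl2, another neuronal Hu protein, was at 21.9, 35.0, 16.6 and 18.7 CPM in CKO, against 42.2, 68.8, 18.1 and 17.8 CPM in control, a log2 fold change of -0.67 ± 0.42 (SE). The same pair of control libraries was high. Without control 2, the log2 fold change was -0.17 for Elavl2 and -0.43 for Elavl4, and the level of the neuronal markers was highest in that library, at 3335 CPM.

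Khdrbs2, a brain-enriched relative of Sam68, was at 2.70, 3.40, 3.74 and 2.42 CPM in CKO, against 10.5, 4.52, 1.5 and 4.43 CPM in control. Its log2 fold change of -0.77 ± 0.47 (SE) had the largest size among the lower genes, and it was -0.18 without control 1. Rbfox1, which controls exons of synaptic genes, was at 30.3, 25.8, 34.8 and 30.3 CPM in CKO, against 41.0, 46.2, 29.8 and 31.8 CPM in control, a log2 fold change of -0.30 ± 0.18 (SE). In each of these genes the groups overlapped.

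Nova1 and Nova2 bind clusters of short pyrimidine-rich motifs and shape synaptic transcripts. Nova1 was at 36.3, 47.4, 34.6 and 32.0 CPM in CKO, against 52.3, 85.4, 28.4 and 39.4 CPM in control, a log2 fold change of -0.45 ± 0.29 (SE). Control 2 was its highest library and control 3 its lowest, as for the neuronal markers. Nova2 was at 10.9, 6.93, 10.4 and 7.67 CPM in CKO, against 9.52, 11.6, 7.05 and 9.02 CPM in control, with a log2 fold change of -0.05 ± 0.23 (SE). Per length, Nova1 stood at 4.26 ± 0.764 FPKM in CKO and 5.80 ± 2.79 FPKM in control, and Nova2 at 1.06 ± 0.230 FPKM in CKO and 1.10 ± 0.218 FPKM in control.

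Of the 6 Celf genes, Celf3, Celf5 and Celf6 had a higher fitted value in CKO, and Celf1, Celf2 and Celf4 a lower one. Celf3 was at 4.89, 4.30, 5.90 and 5.36 CPM in CKO, against 1.74, 5.77, 2.27 and 5.79 CPM in control, a log2 fold change of 0.39 ± 0.38 (SE). Celf5 was at 8.27, 7.83, 7.71 and 7.16 CPM in CKO, against 5.77, 7.79, 3.88 and 7.66 CPM in control, a log2 fold change of 0.30 ± 0.24 (SE). Control 1 and control 3 were the low libraries for both genes. Celf6 was at 6.80, 7.06, 8.25 and 4.96 CPM in CKO, against 5.49, 7.25, 4.16 and 6.70 CPM in control, a log2 fold change of 0.20 ± 0.25 (SE). Celf4 was at 74.9, 71.5, 88.5 and 79.1 CPM in CKO, against 69.7, 119, 60.6 and 83.9 CPM in control, with a log2 fold change of -0.09 ± 0.20 (SE). Rbfox3, whose product is the neuronal antigen NeuN, was at 31.5, 20.0, 36.4 and 19.3 CPM in CKO, against 17.3, 36.7, 26.2 and 32.1 CPM in control. Its log2 fold change was -0.07 ± 0.27 (SE).

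**Figure D3:**
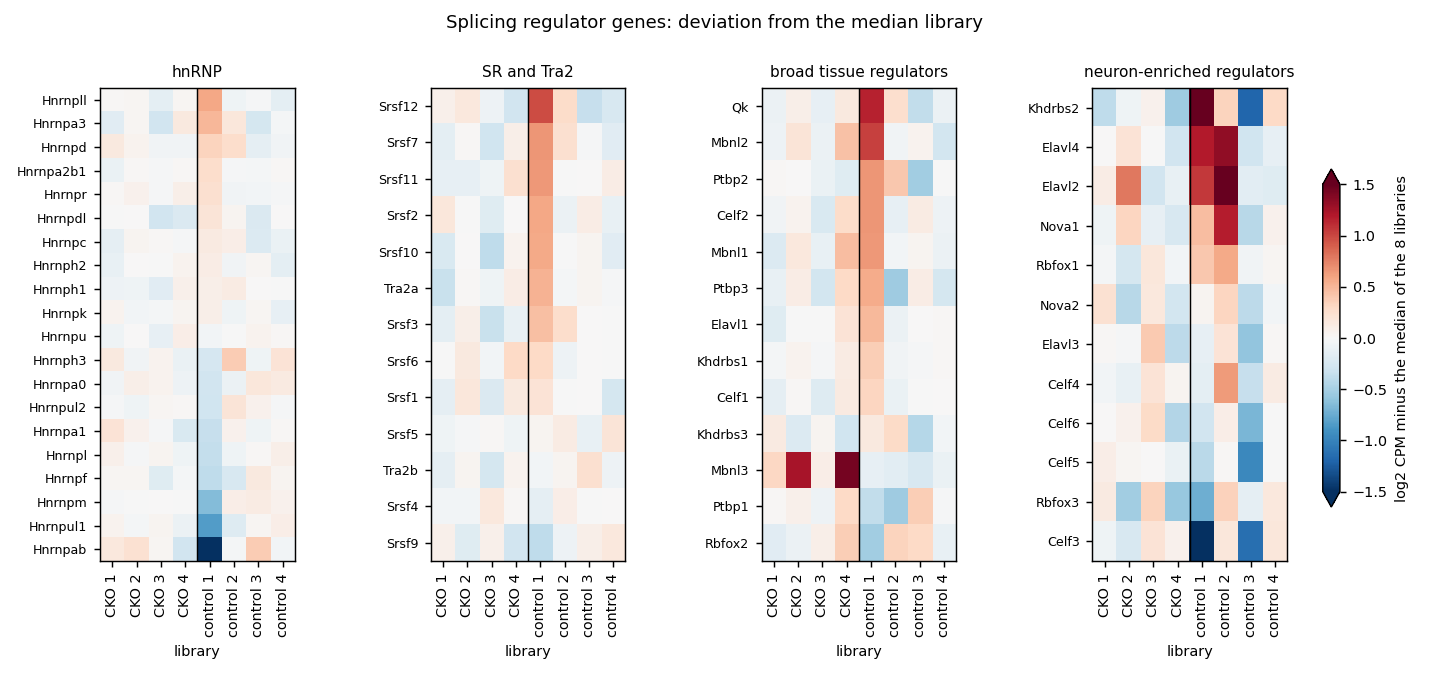
Deviation of log2 CPM from the median of the 8 libraries for each gene (rows) and library (columns, CKO left of control), in 4 panels by role, with colours capped at 1.5. In control 1, 22 of the 58 genes lie more than 0.5 from the median and 7 more than 1, from -2.01 for Hnrnpab to 1.53 for Khdrbs2. Of all genes tested, 41.4% lie more than 0.5 from the median in that library and 14.4% more than 1.

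The levels of 5 pairs of paralogs were compared as ratios of counts, which do not depend on library scaling. The ratios were not corrected for GC content, in which paralogs can differ, as do Ptbp2 (43.1%) and Ptbp1 (53.7%). The log2 ratio of Ptbp2 to Ptbp1 averaged -1.28 ± 0.23 in CKO and -0.86 ± 0.90 in control (SD, n = 4 each), a difference of -0.42 (exact two-sided permutation p = 0.314). Elavl4 to Elavl1 averaged -2.05 ± 0.33 in CKO and -1.60 ± 0.80 in control, a difference of -0.45 (exact permutation p = 0.371). Rbfox3 to Rbfox2 averaged -1.25 ± 0.60 in CKO and -1.14 ± 0.30 in control, a difference of -0.12 (exact permutation p = 0.771). For Celf4 to Celf1 the means were -0.17 ± 0.24 in CKO and -0.22 ± 0.54 in control (exact permutation p = 0.857). For Mbnl2 to Mbnl1 they were -0.35 ± 0.06 in CKO and -0.34 ± 0.24 in control (exact permutation p = 0.943). None of the 5 ratios passed, with Benjamini-Hochberg adjusted p of 0.929 or 0.943.

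Across libraries, the neuron-enriched genes followed the neuronal markers. With each gene centred on its mean over the 8 libraries, the mean log2 CPM of the 12 genes had a Pearson r of 0.94 and a Spearman rho of 0.81 with that of the 14 markers over the 8 libraries. In control 2 the regulators were at 0.57 and the markers at 0.76, and in control 3 they were at -0.54 and -0.40. Without control 2 and control 3, r was 0.895 and rho 0.54 over 6 libraries, and without control 1 r was 0.96 over 7. For the other role groups r was -0.21 (broad tissue regulators, Ptbp2 among them), 0.19 (hnRNP) and 0.09 (SR and Tra2). These values are given as a description: both scores come from the same libraries, and the genes were grouped by known expression.

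**Figure D4:**
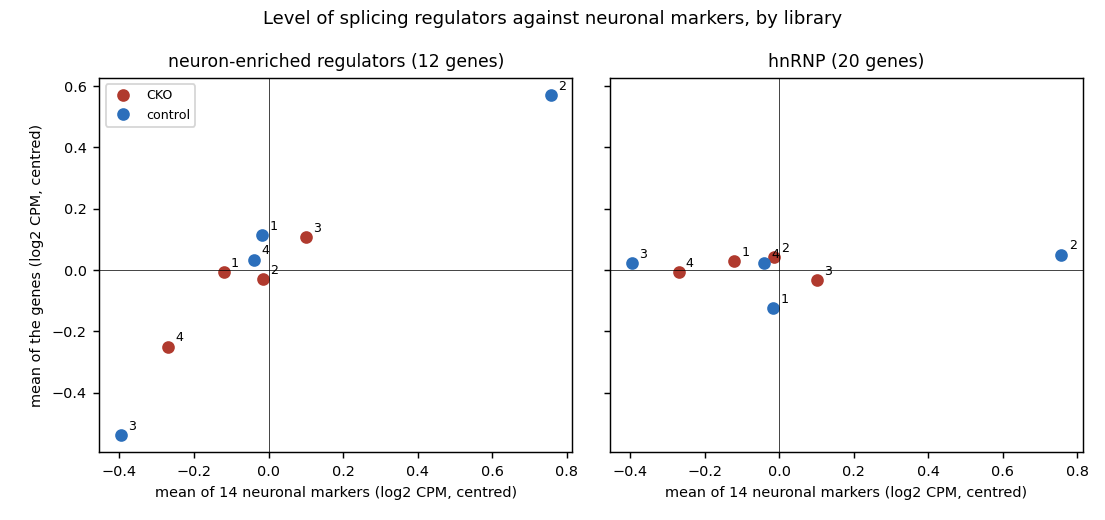
Mean centred log2 CPM of the 12 neuron-enriched regulators (left) and of the 20 hnRNP genes (right) against that of 14 neuronal markers, 1 point per library, with CKO in red and control in blue and replicate numbers beside the points. The neuron-enriched genes lie along a rising line (r = 0.94) between control 3 and control 2, and the hnRNP genes stay near 0 (r = 0.19).

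Base composition separated the same genes in another way. Over the 58 genes, the deviation in control 1 had an r of -0.68 with the GC content of the transcript, and over 16525 genes with an annotated transcript it was -0.42. These are correlations across genes of 1 library, which are not independent. The 19 genes of lowest GC content, 37.9 to 41.8%, had a median deviation of 0.50 in control 1, and 16 of them were above the median library. The 19 of highest GC content, 49.3 to 58.6%, had a median of -0.35, and 16 were below. CKO 3 leaned the other way, with an r of 0.63 over the 58 genes and 0.35 over all, and within smaller deviations. In the other 6 libraries r ran from -0.49 in CKO 2 to 0.40 in control 4. The part of base composition in the differences between the genotypes was not tested beyond the corrected fit, in which 31 of the 58 genes were lower in CKO.

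**Figure D5:**
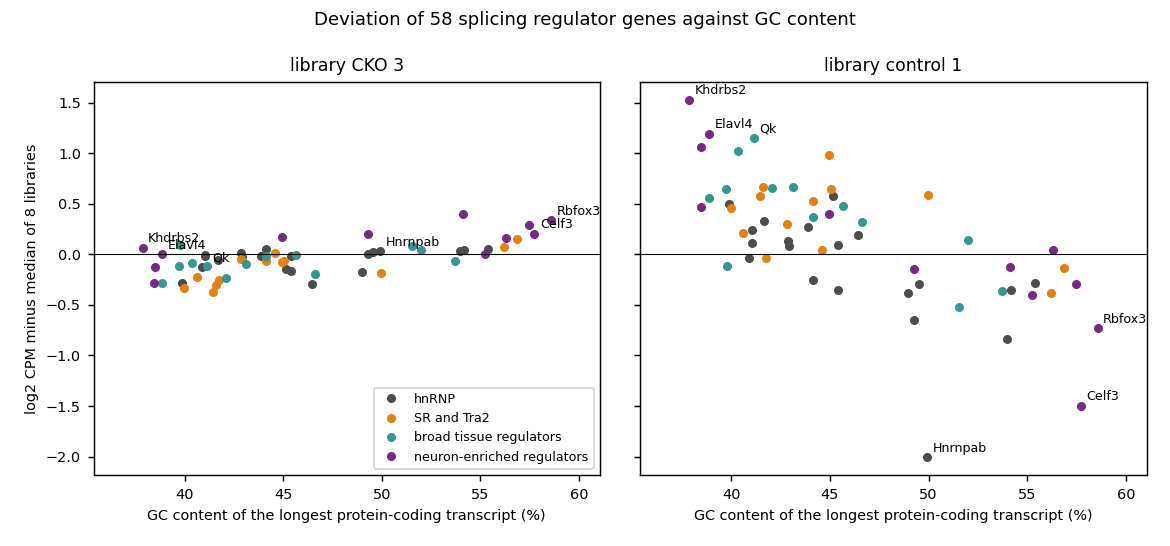
Deviation of log2 CPM from the median of the 8 libraries against the GC content of the longest protein-coding transcript, for the 58 genes in CKO 3 (left) and in control 1 (right), coloured by role. The points fall with GC content in control 1 (r = -0.68) and rise in CKO 3 (r = 0.63).

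The machinery around these regulators was described from 5 lists, and none of their genes passed the threshold (adjusted p of 1.00 by edgeR for those named). Of 10 genes of the U1 snRNP and its partners, through which TIA1 acts, 3 had a higher and 7 a lower fitted value in CKO. Snrpa, which encodes an RNA-binding protein of the U1 snRNP, was at 41.0, 35.6, 44.2 and 42.1 CPM in CKO, against 19.7, 29.8, 39.1 and 38.0 CPM in control, a log2 fold change of 0.36 ± 0.21 (SE). Control 1 was its lowest library. Prpf39 and Luc7l3, which encode U1-associated proteins, gave -0.37 ± 0.22 and -0.22 ± 0.15. With 1 library left out, they ran from -0.48 to -0.13 and from -0.33 to -0.16. Control 1 was the highest library for Prpf39.

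Of 13 genes for recognition of the branch point and the 3′ splice site, 8 were higher and 5 lower in fitted value, with a median log2 fold change of 0.11. Sf3b4 and Sf3a2, subunits of the U2 snRNP, gave 0.33 ± 0.26 and 0.36 ± 0.28 (SE), and the largest U2 subunit gene, Sf3b1, gave -0.19 ± 0.18. With 1 library left out, Sf3b4 ran from 0.13 to 0.55, Sf3a2 from 0.13 to 0.52 and Sf3b1 from -0.28 to -0.04. The level of this list in control 1 was -0.37 relative to the mean of the 8 libraries, the lowest of them.

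Of 9 kinases that phosphorylate SR proteins, 2 were higher and 7 lower in fitted value. Clk1, which releases SR proteins from nuclear speckles, was at 37.1, 57.4, 40.9 and 46.9 CPM in CKO, against 77.4, 64.6, 48.9 and 66.8 CPM in control. CKO 2 lay above control 3, so the groups overlapped. The log2 fold change was -0.50 ± 0.18 (SE), with an unadjusted p of 0.0196 and an adjusted p of 1.00 by edgeR, and -0.63 to -0.40 with 1 library left out. Clk4, its close paralog, gave -0.33 ± 0.17, and the muscle-enriched Srpk3 gave -0.36 ± 0.31. With 1 library left out, these ran from -0.45 to -0.21 and from -0.54 to -0.07.

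The 14 genes of nonsense-mediated decay were split evenly, with 7 higher and 7 lower in fitted value. Smg1, the kinase that phosphorylates UPF1, gave a log2 fold change of -0.24 ± 0.19 (SE), Upf2 gave -0.22 ± 0.19 and Smg8 gave -0.14 ± 0.17. With 1 library left out, Smg1 ran from -0.37 to -0.07, Upf2 from -0.32 to -0.02 and Smg8 from -0.22 to -0.05. Of 30 other nuclear RNA-binding regulators, 28 passed the filter, and 14 of these were higher and 14 lower. Pcbp2, a poly(C)-binding protein, gave 0.23 ± 0.14 (SE), and Son, a scaffold of nuclear speckles, and Fubp1, a binder of AU-rich sequence, gave -0.23 ± 0.14 and -0.19 ± 0.12. Esrp1 and Esrp2, which are epithelial regulators, were below the filter.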

How the data were processed

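Per the labels' protocols, RNA was isolated with TRIzol and libraries made with a NEBNext Ultra kit. Tools listed by the submitters' processing notes, without roles, are featureCounts 1.5.0-p3, HISAT2 2.0.5, DESeq2 1.20.0, CASAVA 1.8 and fastp. These notes also name a human build, whereas the deposited identifiers are mouse: of 54409 shared with GENCODE M21, 98.3% have the same GRCm38 coordinates, as have 56 of the 58 splicing regulator genes. The authors deposited raw counts per gene and FPKM. Handling of strand and of reads with several matches is not given in the sources used here; 8 pseudogenes described as copies of these families had at most 6 counts each.

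Counts were fitted with edgeR 4.0.16 (quasi-likelihood, robust, TMM; R 4.3.3), genotype being the only term, after filterByExpr at minima of 10 (count) and 15 (total count). P-values were adjusted over all genes tested. Centred values are log2 CPM with a prior count of 2. The test was checked on simulated data, which held no outlying library such as control 1. It recovered 2% of 1.5-fold, 43.75% of 2-fold and 92% of 3-fold changes, and called 0.031% of unchanged genes. Small changes would thus mostly be missed. Alternatives were DESeq2 1.42.0 (size factors, Wald test), limma 3.58.1 (voom, and log2 FPKM with pseudocounts of 1 and 0.1), other filters, protein-coding genes, a replicate block and each library left out. Offsets for GC content and length, the fit without control 2 and CKO 4 (whose Tia1 lay nearer the other group), and correlations without control 1 or control 2 were added after the data were seen. The genes and lists were chosen with earlier results of these data known, so no p is given for a score over them. Genes with values per library are those of highest FPKM per role, the 5 of smallest p in each direction, those of the ratios, up to 3 per surrounding list, and further members added to describe their family or control 1 after their values were seen.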

Additional observations from a re-analysis of the deposited data

Results flagged for a closer look

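Within each group of 4 libraries, values far from the others of their group were sought by Dixon's rule. Of 130 groups examined, 12 values met it (9.23%, where chance gives 5%). No share over all genes stands beside it, so the excess is not read as a trait of these genes. Of the 12, 9 lay in control 1, where 41.4% of all genes tested were more than 0.5 log2 from the median library. In that library Hnrnpa2b1 (466 CPM), Mbnl1 (312 CPM), Khdrbs1 (135 CPM), Srsf11 (116 CPM), Tra2a (96.8 CPM), Hnrnpll (89.5 CPM), Elavl1 (85.9 CPM) and Hnrnpr (83.4 CPM) were above the other 3 control libraries, and Hnrnpm (73.3 CPM) was below them. In CKO 4, Srsf11 was high at 87.7 CPM and the log2 ratio of Ptbp2 to Ptbp1 was low at -1.62. In CKO 3, Hnrnpll was low at 54.2 CPM.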

How the results depend on the processing

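No splicing regulator gene passed the threshold under any of 19 alternative fits, and the lowest adjusted p of a member was 0.757. Over all genes, the DESeq2 Wald test called 1 gene and every other fit called 0, also with 1 library left out. Of 740 values of 39 named genes under these alternatives, 708 kept their direction and 32 turned, over 12 genes. With 1 library left out, the ranges of these genes were -0.069 to 0.00094 for Tial1, -0.074 to 0.076 for Hnrnpa0, -0.13 to 0.040 for Srsf9, -0.023 to 0.24 for Elavl3, -0.52 to 0.058 for Qk, -0.25 to 0.087 for Rbfox3, -0.12 to 0.14 for Rbfox2, -0.18 to 0.035 for Elavl1, -0.21 to 0.14 for Celf4, -0.29 to 0.22 for Mbnl2 and -0.21 to 0.13 for Mbnl1. With GC and length offsets, Tial1 was at 0.084, Hnrnpa0 at -0.069, Mbnl2 at 0.054 and Mbnl1 at 0.12. Without control 2 and CKO 4, Srsf9 was at 0.021, Ptbp1 at -0.015, Rbfox3 at 0.21 and Celf4 at 0.13. The cause was not tested. The ratio of Celf4 to Celf1 ran over -0.10 to 0.30, that of Rbfox3 to Rbfox2 over -0.29 to 0.13 and that of Mbnl2 to Mbnl1 over -0.087 to 0.10 with 1 library left out. Without control 2 and control 3, r with the neuronal markers was 0.895 for the neuron-enriched genes, -0.22 for hnRNP and -0.050 for SR and Tra2 genes, and without control 2 or control 1 alone it ran from -0.31 to 0.36 for hnRNP genes. The labels state no pairing of the libraries by number. Deviations from the group means correlated at -0.06, 0.05, -0.09 and -0.33 between same-numbered libraries, and at -0.19 to 0.24 between the others. With 4 libraries a group, these values cannot exclude a pairing. A replicate block called 0 genes, with 36 of the 58 genes lower in CKO. Counting depth limits Mbnl3, at 8 to 33 counts a library.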
